A study of Rattus norvegicus with 24 samples.

Results

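Half-methylated CpGs were the positions at which about as many reads were methylated as unmethylated in the kidney of every rat. They were chosen by their measured methylation levels in 12 reduced representation bisulfite sequencing (RRBS) libraries. An autosomal CpG was a member if it had a coverage of at least 10 reads in all 12 libraries, a mean methylation level from 40 to 60% and a level from 30 to 70% in every library. Of 396151 autosomal CpG lines with that coverage, 7972 (2.01%) were members. A line is 1 CpG read on 1 strand, and the members lay on 7856 distinct CpGs. At 238 places at least 3 member lines lay within 200 bases, and these candidate regions held 823 member lines (10.3% of the members).

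The rats were female, aged 6 to 8 weeks in the growth notes and two-month in the age label, and came from a pair of strains. Sprague Dawley (CD) rats are outbred and Brown Norway (BN) rats are inbred. Kidney was taken from non-pregnant rats (NP) and at pregnancy day 18 (P18), after mating with males of the same strain, with 3 rats in each of CD-NP, CD-P18, BN-NP and BN-P18. The sections held cortex and medulla, so each value is a mean over all kidney cell types in the section. The label kidney was not checked against marker genes here, because the identifiers of the expression table were not paired with gene names in the tables used.

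Methylation of cytosine in CpGs is copied at cell division and is mostly either nearly absent, as at active promoters, or nearly complete. An intermediate level in a tissue can arise where the maternal and the paternal copy differ, as at imprinted genes, or where cell types differ. In females it also arises on the X chromosome, where 1 copy in each cell is inactive. Imprinted genes are expressed from the copy of 1 parent, and many lie in clusters governed by a control region that is methylated on 1 parental copy. RRBS reads give the level at each CpG but not the parent of origin or the cell of origin of a read.

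Levels from 40 to 60% were the exception among the tested CpGs. A mean under 10% was found at 161358 lines (40.7%) and a mean over 90% at 85388 lines (21.6%). Another 25667 lines (6.48%) had a mean from 40 to 60%, and 31.1% of those were members because every library also stayed between 30 and 70%. The rest of the tested lines, a larger share than these, had means from 10 to 40% or from 60 to 90%. The 5 members nearest to the lower bound had means from 40.01 to 40.05%, and the nearest lines outside it that met the bound on each library had means from 39.91 to 39.98%. At the upper bound the 5 nearest members had means of 59.99% or more, and the nearest lines outside had means of up to 60.04%. In all, 108 lines met the bound on each library with a mean under 40%, and 195 with a mean over 60%.

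The depth set how tightly a level was known. The members had a median coverage of 27 reads per library, against 24 reads for all tested autosomal lines. With 10 methylated of 20 reads the 95% Wilson interval runs from 29.9 to 70.1%, which is as wide as the range allowed to each library. With 20 of 40 reads it runs from 35.2 to 64.8%. These intervals cover counting error only. CD-NP replicate 3 had the lowest total coverage, 21669162 reads summed over CpGs, where the other libraries had 26450483 to 44738436. Without it 12248 lines and 454 regions met the rule. The median SD of a member over the 12 rats was 8.58 points, from 1.83 to 14.5 points, and reads alone would give a median SD of 10.2 points. The bounds on each library removed lines with a larger spread, so the small SD is part of the choice. The lines with the same mean that were no members had a median SD of 11.8 points.

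Of the 8 members with the highest coverage, all but 1 ranged less over the 12 rats than the median member, whose range was 27.9 points. The member at chr2:215006059 had a median coverage of 477 reads and levels from 52.6 to 58.1% in the 12 rats. At chr1:260646352, with 511 reads, the levels ran from 51.1 to 59.2%. The member with the highest coverage, chr1:148644322 with 732 reads, ranged from 35 to 66.9%. A median coverage over 100 reads was found at 44 members (0.552%), against 0.298% of all tested autosomal lines.

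Both strands of a member CpG gave nearly the same level. The other strand was not used to choose a member, and it was tested at 799 members. At 232 of these (29%) it was itself a member, so the rule bounded its level there and each such pair counts from both sides. The values below include these pairs. Its median level was 50.6%. It lay from 40 to 60% at 666 of the 799 (83.4%) and from 30 to 70% at 794 (99.4%). None of the 799 had an other strand under 20%, and 2 had one over 80%. The median difference between the strands was 3.13 points. At 3 members the strands were over 20 points apart, which was 0.375% of the pairs, against 0.0995% of all autosomal pairs with both strands tested. Both lines were members at 116 CpGs.

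**Figure D1:**
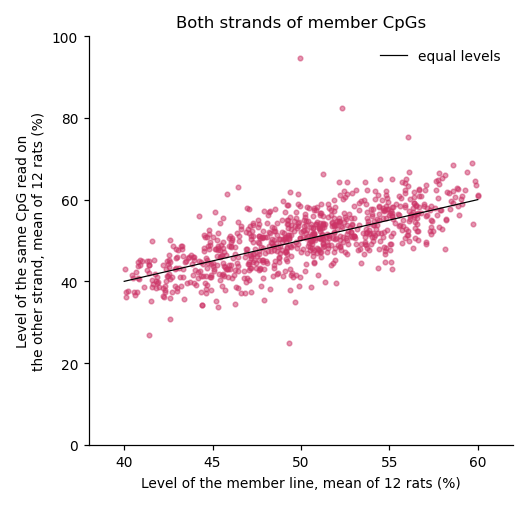
Methylation level of the other strand of 799 member lines (y axis, percent) against the level of the member line (x axis, percent), each the mean of 12 rats. Each point is 1 member, a CpG with both lines members gives 2 points, and the line marks equal levels. The points follow the line, 794 of them with the other strand from 30 to 70%, and 2 points lie over 80%.

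Members outside the regions often stood among CpGs with other levels. The nearest other tested CpG within 50 bases was at hand for 5020 of the 7149 members outside regions. Its mean level was from 40 to 60% for 37.2% of them, from 60 to 80% for 30.1%, from 20 to 40% for 18.8%, over 80% for 11.2% and under 20% for 2.69%. For the 771 members in regions with such a neighbour it was from 40 to 60% in 77.2%, over 80% in 1.17% and under 20% in 1.3%. Since a region needs several members close together, this contrast follows in part from the choice. Members had a median of 2 other tested lines within 100 bases, and all tested autosomal lines a median of 4.

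Members lay outside promoters more than the tested CpGs did. The start of a gene could be placed on the coordinates of the files (Rnor6.0) for 6153 genes, from the spacing of the CpGs in their RefSeq promoter windows. These windows held 24316 tested autosomal lines (6.14%), of which 97.6% had a mean under 10%. They held 32 members (0.401% of the members), in the windows of 20 placed promoters. Since members were chosen by level and promoters are mostly unmethylated, the low share is a description.

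Of the 238 regions, 4 overlapped a placed promoter window. These windows held 12 of the 32 members in placed promoters. Their sequences are shown because they are the windows that a candidate region overlapped, and no sequence of the files' build was used for the other regions. Hoxd3 encodes a homeobox transcription factor that helps to set position along the body axis. The region at chr3:61657880-61658129 held 5 member lines, and 2 of them lay in the Hoxd3 window. Ttc23l encodes a protein with tetratricopeptide repeats, and its region at chr2:60538032-60538114 held 3 member lines. The windows of the uncharacterised genes LOC134480864 and LOC102548510 held 4 and 3 member lines. Each sequence below is the 250 bases before the start, read 5′ to 3′ on the strand of the gene, from RefSeq on GRCr8, with the member CpGs in capitals. The third member CpG of the Ttc23l window lies after the start and is not in the printed part.
Hoxd3 (GRCr8 chr3:80045876-80046125, plus strand): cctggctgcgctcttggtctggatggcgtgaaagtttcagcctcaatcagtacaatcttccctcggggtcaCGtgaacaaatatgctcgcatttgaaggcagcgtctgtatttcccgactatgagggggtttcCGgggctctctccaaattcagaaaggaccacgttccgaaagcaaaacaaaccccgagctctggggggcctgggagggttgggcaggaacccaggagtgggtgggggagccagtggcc
Ttc23l (GRCr8 chr2:61265404-61265653, minus strand): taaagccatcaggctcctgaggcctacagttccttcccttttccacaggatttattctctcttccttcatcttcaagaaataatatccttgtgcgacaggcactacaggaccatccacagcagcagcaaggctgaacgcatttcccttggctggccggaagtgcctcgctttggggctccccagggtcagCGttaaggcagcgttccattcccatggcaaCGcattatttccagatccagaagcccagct
LOC134480864 (GRCr8 chr10:82991102-82991351, minus strand): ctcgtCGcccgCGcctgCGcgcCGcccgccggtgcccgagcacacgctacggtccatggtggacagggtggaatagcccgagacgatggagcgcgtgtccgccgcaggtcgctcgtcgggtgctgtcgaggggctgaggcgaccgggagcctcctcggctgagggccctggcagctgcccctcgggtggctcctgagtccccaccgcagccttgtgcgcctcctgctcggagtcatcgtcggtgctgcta
LOC102548510 (GRCr8 chr2:207296328-207296577, plus strand): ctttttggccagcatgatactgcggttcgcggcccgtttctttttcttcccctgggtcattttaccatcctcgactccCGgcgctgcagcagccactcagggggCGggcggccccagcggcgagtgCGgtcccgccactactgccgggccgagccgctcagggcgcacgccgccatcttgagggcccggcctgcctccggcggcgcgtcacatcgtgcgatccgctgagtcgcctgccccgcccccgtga
The sequences differ in CpG density, with 11 CpGs for Hoxd3, 7 for Ttc23l, 31 for LOC134480864 and 30 for LOC102548510. At LOC134480864 the 4 member CpGs stood together at the far end of the window, and the 9 tested lines of the window had levels from 37.7 to 51.5%. At LOC102548510 the 13 tested lines ran from 0.463 to 45.1%, so half-methylated CpGs and an almost unmethylated one lay in the same window. The 10 tested lines of the Hoxd3 window ran from 13.5 to 61.6%, and the 8 of the Ttc23l window from 21.8 to 64.2%.

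The candidate regions were short. Their median span was 67 bases, from 4 to 318 bases. There were 171 regions with 3 member lines, 46 with 4, 13 with 5, 3 with 6, 1 with 7, 2 with 8, 1 with 9 and 1 with 11. In 209 regions the lines lay on at least 3 distinct CpGs, and in 29 regions on 2. CpGs that lie within 1 read share the same DNA molecules, so the lines of a region are not independent measurements.

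The CpGs in a region that were tested and not members were spread around the middle, 323 of 401 (80.5%) with a mean from 30 to 70%. No such line was present in 94 regions, and 144 regions held 401 of them. Of these 401 lines 192 (47.9%) had a mean from 40 to 60%, 103 (25.7%) from 20 to 40%, 84 (20.9%) from 60 to 80%, 15 (3.74%) under 20% and 7 (1.75%) over 80%. Counting members and other lines together, every tested line had a mean from 30 to 70% in 194 of the 238 regions. These include the 94 regions in which every tested line was a member, where the rule fixed this in advance. Outside the spans, 105 regions had at least 3 tested lines in the 500 bases on either side. The mean of these flanking lines was from 30 to 70% for 82 of them, over 80% for 5 and under 20% for 2.

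The region with the most members lay at chr3:148167992-148168228, between the starts of Hm13 and Bcl2l1. Hm13 encodes signal peptide peptidase, and RefSeq lists Mcts2 in the same interval, a gene copy known to be imprinted in the mouse. The region held 11 member lines on 10 CpGs, 17062 bases from the nearest placed promoter. The levels, each the mean of the member lines in 1 rat, were 52.9, 49.7 and 46.5% in CD-NP, and 46.9, 42.9 and 43.8% in CD-P18. They were 58.2, 51.7 and 47.9% in BN-NP, and 51.3, 50.4 and 57.4% in BN-P18. The lowest BN-P18 rat stood above the highest CD-P18 rat, and the other groups compared overlapped. Such statements, here and at the regions below, are descriptions without a test, since the levels chose the members. Over the 4 comparisons, groups did not overlap at 9.61 to 11.4% of single members and at 6.14 to 7.61% of all tested autosomal lines. The share over the 238 regions was not computed. The 3 other tested lines in the span had means from 46 to 51.1%, and all 10 flanking lines had means from 30 to 70%. Of the 26 tested lines within 2000 bases of the centre, 24 were at 30 to 70% and 2 over 80%.

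The second region lay at chr6:133658173-133658283, 81556 bases from the promoter window of Dlk1 and 968745 bases from that of Dio3. Dlk1 encodes a membrane protein related to the ligands of Notch, and Dio3 an enzyme that inactivates thyroid hormone. The genes between them include the noncoding RNA Meg3 and Rtl1, and the cluster is known to be imprinted in mammals. The 9 member lines lay on 8 CpGs. Their mean levels were 51.3, 53.7 and 53.7% in CD-NP, 53, 54.1 and 54.1% in CD-P18, 53.9, 50 and 49.4% in BN-NP, and 46.7, 48.6 and 52.4% in BN-P18. Every CD-P18 rat was above every BN-P18 rat, by little (the nearest were at 53 and 52.4%), and the other groups compared overlapped. With an SD of 2.51 points over the 12 rats, this region had one of the smallest spreads among the 238, whose SDs ran from 2.04 to 11.3 points with a median of 5.84. A region of 3 member lines, chr6:133657638-133657670, lay beside it, with 12 rats from 44.4 to 62.1%. All 24 tested lines within 2000 bases had means from 46.9 to 67.5%.

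Near Zdbf2 the depth was higher than at the other regions described here. Zdbf2 encodes a zinc finger protein that is expressed from the paternal copy in the mouse, and Gpr1 (Cmklr2), in the same interval, encodes a chemerin receptor. The region at chr9:70041340-70041472 held 8 member lines on 7 CpGs, 10436 bases from the promoter window of Zdbf2, with a median coverage of 89.5 reads. The levels were 49.5, 48.2 and 48.8% in CD-NP, and 45.1, 43.8 and 40.5% in CD-P18. They were 43, 38.8 and 42.3% in BN-NP, and 49.6, 39.2 and 41.5% in BN-P18. The CD-NP rats did not overlap with the CD-P18 or the BN-NP rats, while the BN-P18 rats overlapped with both of their comparison groups. All 13 tested lines within 2000 bases had means from 31.9 to 52.8%. The Zdbf2 promoter window itself had 11 tested lines with a mean level of 2.76%.

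**Figure D2:**
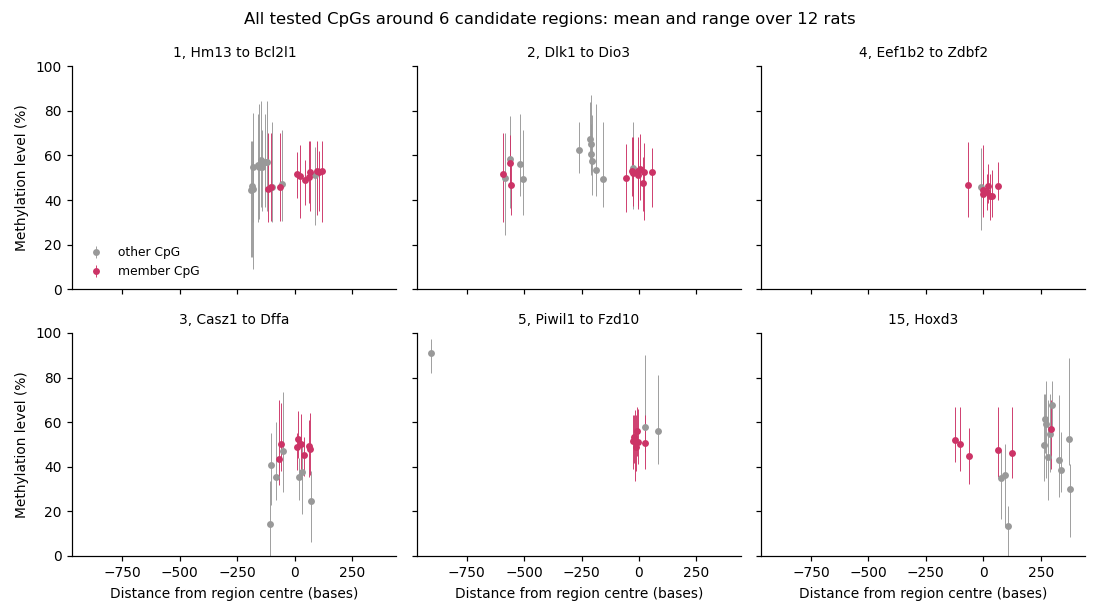
Methylation level (y axis, percent) of all tested CpG lines against the distance from the centre of 6 candidate regions (x axis, bases), as the mean (point) and the range (bar) over 12 rats; members are red and other lines grey. Of the plotted lines that are no members, those at the Hm13, Dlk1 and Zdbf2 intervals have means near the middle of the scale (the 2 lines over 80% near Hm13 lie farther out than the plot reaches), while at the Casz1 and Hoxd3 regions some fall to 14.4 and 13.5%.

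Gnas held the largest group of regions. It encodes the stimulatory G protein alpha subunit and has several promoters that are used from different parental copies. RefSeq lists more than 1 Gnas promoter, and 2 windows could be placed, 45088 bases apart. Of 61 tested lines from the start of the first window to the end of the second, 59 (96.7%) had means from 30 to 70%, and 23 (37.7%) were members. The other 2 lines, at 96.06 and 94.17%, lay 29812 and 29821 bases from the start of the first window. They were the only tested lines between 13087 and 42567 bases from it. The tested lines stood in short clusters, so the level of most of the stretch was not measured. The stretch held 5 regions with 22 member lines, whose starts covered 42887 bases. The first region, chr3:172375304-172375450, lay 298 bases from the upstream window. The others lay at chr3:172385164-172385214, chr3:172387584-172387632, chr3:172417336-172417420 and chr3:172418191-172418234, the last 1860 bases from the downstream window. No tested line lay in the windows themselves.

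The mean over the 23 members of this stretch was 45.2, 43.7 and 47.3% in the CD-NP rats, and 38.4, 44.1 and 36.8% in the CD-P18 rats. It was 44, 45.8 and 50.8% in BN-NP, and 46.9, 51.4 and 42.2% in BN-P18. The groups overlapped in all 4 comparisons. The 5 regions did not rise and fall together. At chr3:172418191-172418234 the BN-P18 rats were at 68, 65.9 and 38.7%, and at chr3:172387584-172387632 the same rats were at 40.2, 36.9 and 32%. The coverage at these regions was low, with medians of 19.5 and 21 reads.

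**Figure D3:**
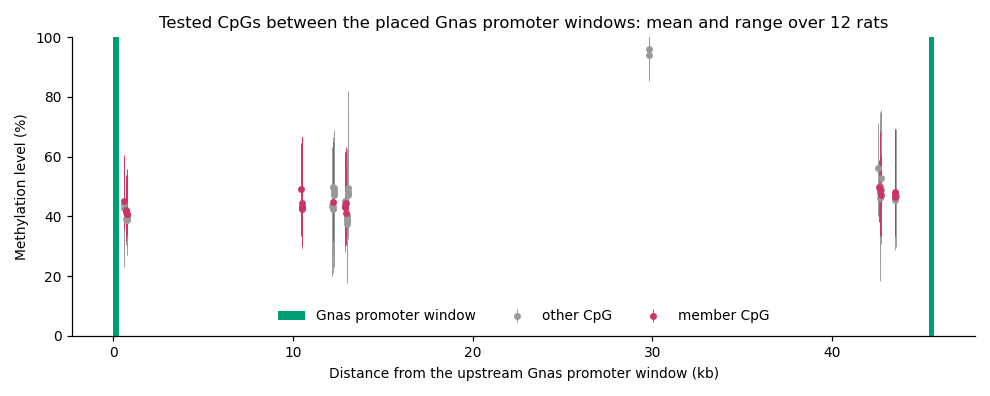
Methylation level (y axis, percent) of the 61 tested CpG lines between the placed Gnas promoter windows (green) against the distance from the upstream window (x axis, kb), as the mean (point) and the range (bar) over 12 rats. Members (red) and other lines (grey) form groups near the middle of the scale, with 2 lines over 80%.

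Other genes of the imprinted list had regions in the intervals between their placed neighbours. An interval is the DNA between 2 neighbouring placed promoters, up to 2000000 bases long and of similar length in both genome builds. Of the 238 regions 182 lay in such an interval, and for 15 of these (8.24%) the interval or its end genes included a gene of the list. The same was true of 2.47% of the members and of 1.22% of the tested autosomal lines with an interval. The intervals are long, and the 5 Gnas regions and the 2 of the Dlk1 interval each count separately.

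The region at chr1:216673962-216674083 lay 3092 bases from the promoter window of Slc22a18, in an interval with Kcnq1, a potassium channel, and Cdkn1c, an inhibitor of the cell cycle. Its 3 member lines had a median coverage of 42.5 reads. The levels were 50.6, 39.8 and 52.5% in CD-NP, 57.7, 54.5 and 49.5% in CD-P18, 59.3, 54.4 and 60.6% in BN-NP, and 57.5, 46.1 and 48.4% in BN-P18. Every BN-NP rat was above every CD-NP rat, and the other groups compared overlapped. No other line was tested within 2000 bases.

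A region at chr4:89150819-89150863, in the interval of Nap1l5, had 4 member lines with 12 rats from 44.5 to 63.5%. The interval from Rbm48 to Bet1, with Calcr (the calcitonin receptor) and Tfpi2, held the region chr4:27871672-27871783. Its 6 member lines ranged from 35.7 to 56.2%, and it lay 173304 bases from the nearest placed promoter. The remaining regions of this kind were chr18:5632457-5632520 (interval of Impact), chr14:107751095-107751216 (Commd1) and chr9:70739140-70739198 (from Zdbf2 to Creb1, 686933 bases from Zdbf2).

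Of the 73 genes of the list 64 were found in RefSeq, and 49 of them lay in or at a usable interval with a tested line. For 40 the interval held a member and for 17 a region. The share over all intervals was not computed, and an interval with many tested lines can hold members at the 2.01% found over all tested autosomal lines. Genes in the same interval, such as Meg3 and Rtl1, each count separately. The intervals of H19, with 80 tested lines, of Igf2r, with 95, and of Plagl1, with 80, held no member. Of the 16 genes of the list with a placed promoter, 10 had no tested line in the window, so no member was possible there. The tested lines of the other 6 windows, none of them a member, had mean levels of 5.99% for Igf2, 2.76% for Zdbf2, 2.47% for Klf14, 1.91% for Dio3, 0.459% for Casd1 and 0.181% for Copg2. The list was written from general knowledge of imprinting in mouse and rat. A region at chr14:92116950-92117062, chosen here after its values were seen, lay 212267 bases from the promoter window of Fignl1. RefSeq lists Fignl1 beside Ddc and Grb10. Neither Ddc nor Grb10 had a usable interval, so this region is not among those counted for the list. All 23 tested lines within 2000 bases of it had means from 38.7 to 51.3%.

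Several regions with many members lay in intervals without a gene of the list. The region chr5:165774188-165774322 held 8 member lines between Casz1, a zinc finger transcription factor, and Dffa, the inhibitor of a nuclease of apoptosis. The levels were 45.3, 48.8 and 43.3% in CD-NP, 46.4, 46.6 and 52.1% in CD-P18, 47, 44.7 and 43.8% in BN-NP, and 55.2, 50.3 and 57.1% in BN-P18. Every BN-P18 rat was above every BN-NP rat, and the other groups compared overlapped. Here the 3 other tested lines in the span were at 35.5 to 47%. The 4 flanking lines had a mean of 28.7%, with 1 under 20% and 2 from 30 to 70%. A line with a mean under 40% could not be a member, so lower levels around the members follow in part from the choice.

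At chr12:31663362-31663416, between Piwil1, which binds small RNAs in the germ line, and Fzd10, a receptor for Wnt proteins, all 7 tested lines in the span were members. The rats ranged from 41.3 to 63.8%, both in CD-NP, and 5 of the 14 tested lines within 2000 bases were over 80%. The region chr18:60076701-60076789 lay 101259 bases from the promoter window of Fech, which encodes the last enzyme of haem synthesis. It held 6 member lines with rats from 46.2 to 58.2%. The region chr17:44420510-44420549, also with 6 member lines, had rats from 38.6 to 63.5% and no usable interval. It lay 101345 bases from the placed promoter of the histone gene Hist1h4b.

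The other regions among the 15 with the most members each held 5 member lines. At chr12:40650425-40650472, 210495 bases from Hectd4, the rats ranged from 39.3 to 53.3%. Between Wwox, an oxidoreductase, and Maf, a transcription factor, at chr19:46826903-46827000, they ranged from 42.8 to 62.6%. At chr7:121519872-121520008, 30557 bases from Rps19bp1, they ranged from 40.5 to 58.4%, and 4 of the 16 tested lines within 2000 bases were over 80%. At the Hoxd3 region the levels ranged from 39.4 to 54.6%, and the 3 other tested lines in the span were at 13.5 to 36.4%. In 54 of the 238 regions every rat had a level from 40 to 60%.

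**Figure D4:**
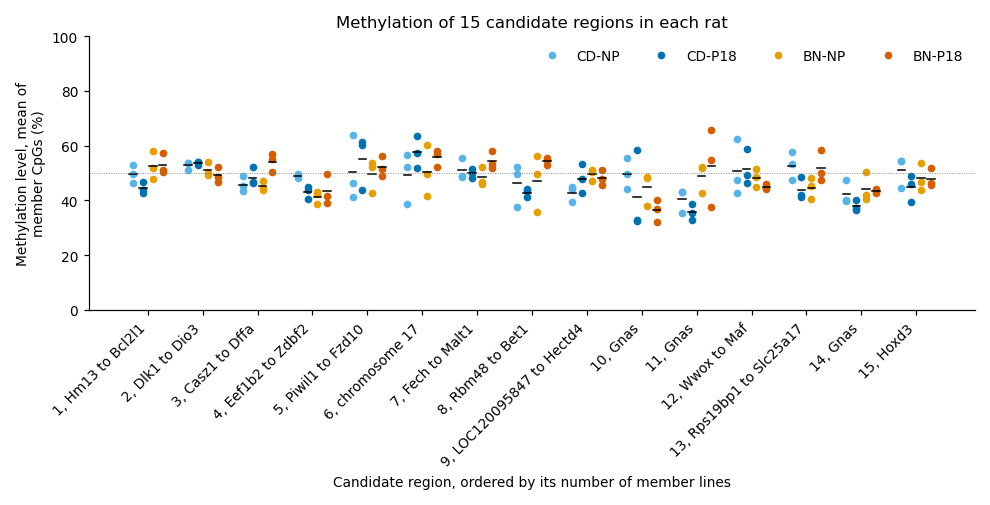
Mean methylation level of the member CpGs (y axis, percent) in each rat for the 15 candidate regions with the most member lines (x axis), labelled by rank and by the placed genes on either side. Points are rats, coloured by group with 3 rats in each, and black bars are group means; all points lie between 32 and 65.9%.

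The levels of the members differed little between strains and stages on average, which follows in part from how they were chosen. The mean over all members was 51.6, 50.2 and 50.8% in CD-NP, 50.5, 50.1 and 50.4% in CD-P18, 50.2, 49.9 and 50.1% in BN-NP, and 50.6, 50.2 and 50.2% in BN-P18. The library with the highest mean was 1 of the CD-NP libraries, and all 12 lay within 1.74 points. The median difference of a member was -0.567 points for CD-P18 minus CD-NP, 0.3 points for BN-P18 minus BN-NP, -0.88 points for BN-NP minus CD-NP and 0.123 points for BN-P18 minus CD-P18. These are descriptions without a test, because the levels of all 12 rats chose the members.

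The differences of single members had an SD of 6.99 to 7.51 points in the 4 comparisons. Reads alone would give a member a median SD of 10.2 points over single rats, which is on another scale than a difference between means of 3 rats. The bounds on each library also limit these differences. The counts below are therefore not read as differences between groups. Of the 7972 members, group means were over 20 points apart at 35 for CD-P18 and CD-NP, 32 for BN-P18 and BN-NP, 55 for BN-NP and CD-NP, and 47 for BN-P18 and CD-P18. The share over all tested lines was not computed. The levels of the 3 rats of each group did not overlap at 766 members (9.61%) for CD-P18 and CD-NP, where the share was 6.26% over all tested autosomal lines. For BN-P18 and BN-NP it was 770 members (9.66%), against 6.14% of all. For BN-NP and CD-NP it was 891 (11.2%), against 7.61%, and for BN-P18 and CD-P18 it was 912 (11.4%), against 7.6%. Nothing is read from these shares, since the lines at either end of the scale often have equal values in several rats.

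Over the 238 regions the difference between group means ran from -11.7 to 13.5 points for CD-P18 minus CD-NP and from -18.4 to 14.7 points for BN-P18 minus BN-NP. It ran from -14.3 to 16.4 points for BN-NP minus CD-NP and from -13.9 to 18.2 points for BN-P18 minus CD-P18. A difference over 10 points was found at 12, 10, 17 and 12 regions. The share over stretches of other tested lines was not computed. The same levels chose the regions, so these counts are not read as differences between groups. The highest BN-P18 minus CD-P18 difference, 18.2 points, was that of the Gnas region at chr3:172418191-172418234. There the BN-P18 rats had an SD of 16.3 points around 57.5%, and the CD-P18 rats an SD of 4.43 points around 39.4%.

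The 401 tested CpGs in the regions that were not members were fitted with the whole table. The levels of the same 12 rats decided that these lines were no members, 192 of them with a mean from 40 to 60% and a rat outside 30 to 70%. The set is therefore chosen in part on its spread, and its calls are a description. A logistic model of the methylated and unmethylated reads, with the spread between rats moderated by limma and Benjamini-Hochberg adjustment over all 404069 tested lines, called a line where the adjusted p was under 0.05 and the pooled levels were over 10 points apart. For CD-P18 against CD-NP 0.0483% of all tested lines were called and none of the 401, with 12 of them (2.99%, against 3.35% of all lines) at an unadjusted p under 0.05. For BN-P18 against BN-NP 0.000247% were called and none of the 401, with 20 (4.99%, against 3.52%) at an unadjusted p under 0.05. For BN-P18 against CD-P18 0.555% were called and none of the 401, with 22 (5.49%, against 4.94%) at an unadjusted p under 0.05. For BN-NP against CD-NP 0.592% were called and 1 of the 401, with 31 (7.73%, against 5.05%) at an unadjusted p under 0.05. These lines share reads with members.

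The called line was at chr3:14903231 on the minus strand. The BN-NP rats were at 43.3, 38.9 and 57.9% and the CD-NP rats at 0, 26.7 and 0%, a difference of 38.1 points between pooled reads (adjusted p = 0.0057 by the logistic model with limma). At day 18 the BN rats were at 46.7, 40 and 72.7% and the CD rats at 11.8, 37.5 and 4.35%, also without overlap, and that comparison was not called. With coverage of at least 20 reads this line was not tested, and with the replicate number as a block or without BN-NP replicate 1 none of the 401 lines was called. Over all tested lines the block left 546 calls, and leaving out that rat left 1782. Without CD-NP replicate 1 the count for BN-NP against CD-NP was 2, and without CD-NP replicate 2 or BN-NP replicate 3 it was 3. Over all tested lines the calls were then 2073, 2329 and 1799. Without CD-NP replicate 1 the count for CD-P18 against CD-NP was 2, and without CD-P18 replicate 2 or 3 the count for BN-P18 against CD-P18 was 1. Here the calls over all tested lines were 206, 2127 and 2170.

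The share of half-methylated CpGs was similar on the autosomes and higher on the X chromosome. It ranged from 1.75% of the tested lines on chromosome 15 to 2.55% on chromosome 12. On the X chromosome, which the rule left out, 336 of 7900 tested lines (4.25%) met the same bounds. Lines with a mean from 40 to 60% made up 14.1% of the X lines and 6.48% of the autosomal ones. The X chromosome held 23 places with at least 3 such lines within 200 bases, against 4 to 20 on each autosome. The difference was not tested.

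**Figure D5:**
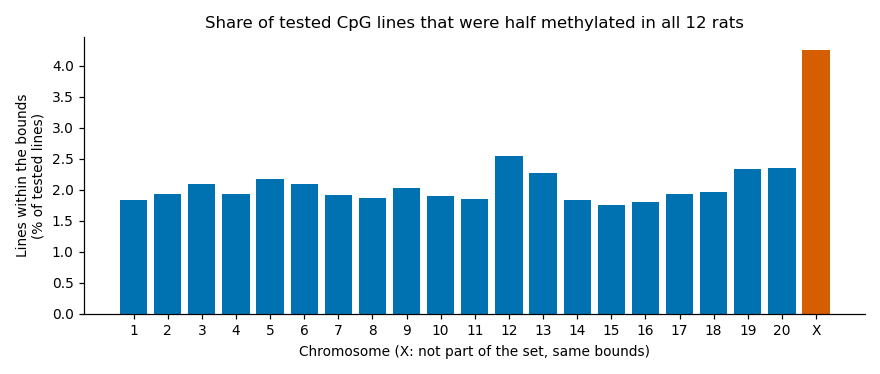
Share of tested CpG lines within the bounds in all 12 rats (y axis, percent of the tested lines) for each autosome (blue) and for the X chromosome (orange). The autosomes run from 1.75 to 2.55% and the X chromosome is at 4.25%.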

How the data were processed

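Kidney DNA of 12 rats was digested with MspI and sequenced as RRBS libraries. Before deposit, the authors used Trim Galore 0.4.5 (submitters' notes) and NuGEN scripts for trimming and removal of duplicates, and Bismark for alignment to Rnor6.0. Per the file headers, the lists hold 1 line for each strand of a CpG, with the read count (coverage) and the percent of methylated and of unmethylated reads. The lowest deposited coverage was 5 reads. A C-to-T variant counts as unmethylated in these values. Total coverage, summed over CpG lines so that a read over several CpGs counts more than once, ran from 21669162 to 44738436 per library. The deposited RNA-seq count table was not used, because its identifiers were not paired with names or positions in the tables used here, so the planned tests of genes were not run.

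Members and lists were chosen with earlier results of these data known. Group and replicate came from the titles. Each replicate is labelled as a separate rat. The p-values rest mostly on a spread shared across lines and little on the 3 rats of each group at 1 line. The shared part carried 52.1 (CD-P18 against CD-NP), 1000000 (BN-P18 against BN-NP), 117 (BN-NP against CD-NP) and 52.2 (BN-P18 against CD-P18) degrees of freedom. Methylated reads were recovered as coverage times percent. The logistic model was fitted per line for 4 comparisons of 3 against 3 libraries, on lines with at least 10 reads in all 12 libraries. The dispersion, never under 1, was moderated with squeezeVar of limma 3.58.1 (R 4.3.3) with coverage as the trend and the prior taken from lines with a pooled level of 10 to 90%. An F test with Benjamini-Hochberg adjustment followed, tested on simulated data. Same-numbered rats did not deviate together, so the main fit had no block.

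RefSeq promoter windows (GRCr8) were placed on Rnor6.0 where at least 8 CpGs coincided with CpGs of the files by their spacing and no covered CpG fell elsewhere. Of 33469 windows 6746 were placed, 99.93% of them on the chromosome that RefSeq gives. Windows on another chromosome were dropped, and the limits were set after this agreement was seen. Distances of regions to genes were measured to the near edge of the placed window. GRCr8 was used for gene names and order only, and a region in an interval is not placed within a gene. Named regions were the 15 with the most member lines (ties by the number of distinct CpGs, then the smaller span), every region at or within 5000 bases of a gene of the imprinted list, and the members nearest to each bound and with the highest coverage. The regions in intervals of listed genes and at placed promoters were added after the data were seen. Alternatives to the rule and to the model are given in the closing section.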

Additional observations from a re-analysis of the deposited data

How the results depend on the processing

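The number of members depended mainly on the bounds and the depth. With at least 20 reads in every library 926 members and 17 regions were left, with means from 45 to 55% and libraries from 35 to 65% there were 1563 and 9, and with 35 to 65% and 25 to 75% there were 19726 and 1364. Summing both strands gave 10859 members and 375 regions, and the level of pooled reads gave 7930 and 235. At least 5 lines within 200 bases left 19 regions. Leaving out 1 library gave 8528 to 12248 members and 264 to 454 regions, the highest values without CD-NP replicate 3. For BN-NP against CD-NP, 1 line of the regions that was no member was called in the report. The count was 0 at 20 reads, 5 at a dispersion of 1, 0 with each line's own dispersion and 0 to 3 without 1 library. Over all tested lines the calls were 2393 in the report and 347, 3037, 0 and 1782 to 2329 in these settings. With each line's own dispersion no line of the whole table was called in any comparison, so a count of 0 there says nothing about the regions. For BN-P18 against CD-P18 a dispersion of 1 gave 2 calls (3205 over all tested lines), and leaving out 1 library gave 0 to 1 (1496 to 2171). For CD-P18 against CD-NP leaving out 1 library gave 0 to 2 calls (154 to 315 over all tested lines), and for BN-P18 against BN-NP 0 (1 to 3).

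With the replicate number as a block, 0 of these lines were called in each of the 4 comparisons. Over all tested lines the block left 102 calls for CD-P18 against CD-NP and 1 for BN-P18 against BN-NP. It left 546 for BN-NP against CD-NP and 566 for BN-P18 against CD-P18. The numbers do not pair the rats: the correlation of the deviations of same-numbered rats from their group means was from -0.017 to 0.025. Of 78 alternatives 56 left a count within 1.5 times. Other normalizations, filters and tools for gene expression were not run, since no test of genes was made.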
